A study of Mus musculus with 28 samples.

Results

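The miR-15/16 family is a group of small RNAs transcribed from several places in the genome that carry the same or nearly the same seed, the bases 2 to 8 at the 5′ end through which a microRNA (miRNA) pairs with its target mRNAs. The 8 members described here, mmu-miR-15a-5p, mmu-miR-15b-5p, mmu-miR-16-5p, mmu-miR-195a-5p, mmu-miR-497a-5p, mmu-miR-322-5p, mmu-miR-503-5p and the partner arm mmu-miR-322-3p, were chosen by name among the 1966 miRNAs quantified. They were measured by small RNA sequencing of blood from 14 female wildtype C57BL/6N mice, an inbred laboratory strain. The mice were 2 months (n = 3), 6 months (n = 4), 8 months (n = 3), 12 months (n = 2) or 18 months old (n = 2), were kept in groups in 1 animal facility, and were bled from the vena cava under ketamine and xylazine. Platelets and debris were spun out of the blood. By the submitters' protocol the plasma of each mouse was never pooled with that of another. It was then ultracentrifuged into a pellet enriched in extracellular vesicles (EVs) and a remaining EV-depleted fluid that holds the free circulating RNA, called plasma below. Each mouse thus gave 1 library of each kind, 28 in all. For 2 of the 2-month mice the plasma labels do not tell the animals apart. No group was treated, and the design asks how circulating miRNA levels change over these ages and how they divide between the 2 fractions.

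Members of the family are best known for restraining the cell cycle: their targets include cyclins and cyclin-dependent kinases, and Bcl2, the inhibitor of apoptosis, is a classical target of miR-15 and miR-16. Most are made as pairs from shared precursors, miR-15a with miR-16, miR-15b with miR-16, miR-497a with miR-195a, and miR-322 with miR-503. In blood, miR-16 is very abundant in red cells, where miR-451a is the dominant miRNA, while miR-322 (the mouse counterpart of human miR-424) and miR-503 are known from muscle and blood vessel cells.

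The mature sequences, from RefSeq on GRCm38.p6 (all 8 names matched), are given because they define the group and show where the name does not hold. The capitals mark the seed, bases 2 to 8 from the 5′ end.
mmu-miR-16-5p: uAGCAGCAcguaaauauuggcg
mmu-miR-195a-5p: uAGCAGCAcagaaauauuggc
mmu-miR-15a-5p: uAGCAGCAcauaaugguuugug
mmu-miR-15b-5p: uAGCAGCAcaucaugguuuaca
mmu-miR-497a-5p: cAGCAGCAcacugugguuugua
mmu-miR-322-5p: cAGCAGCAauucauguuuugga
mmu-miR-503-5p: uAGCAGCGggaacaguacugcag
mmu-miR-322-3p: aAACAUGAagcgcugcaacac

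The first 6 share the seed AGCAGCA. In miR-503-5p the last base of the seed differs (A8G relative to miR-16-5p, counted from 1 at the 5′ end), and miR-322-3p, the opposite arm of the miR-322 hairpin, has an unrelated seed, AACAUGA, so it belongs to the group by its precursor only. Outside the seed the members fall apart to different degrees. miR-16-5p and miR-195a-5p differ at 2 of 21 compared positions (G10A and U11G, miR-16-5p first) and miR-15a-5p and miR-15b-5p at 4 of 22, whereas miR-16-5p and miR-322-5p differ at 10 of 22. The sources used here do not say how reads that match more than 1 member were assigned. The deposited count of miR-16-5p was not a whole number in 19 of 28 libraries, and that of each other member was whole in every library.

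The 8 members come from 4 places in the genome (GRCm38). On chromosome 14, Mir15a (chr14:61632027-61632110) lies in an intron of Dleu2, a noncoding transcript, and Mir16-1 (chr14:61631880-61631972) in an exon of it, 54 bases away and on the same minus strand. On chromosome 3, Mir15b (chr3:69009772-69009835) and Mir16-2 (chr3:69009902-69009996) lie 66 bases apart in an intron of Smc4, a protein-coding gene of the condensin complex, on its plus strand. Mir497 (chr11:70234717-70234800) and Mir195a (chr11:70235042-70235135) are 241 bases apart on the plus strand of chromosome 11, with Mir497b opposite Mir497. Mir322 (chrX:53054255-53054349) and Mir503 (chrX:53053984-53054054) are 200 bases apart on the minus strand of the X chromosome, in a row that goes on with Mir351, Mir542 and the Mir450 hairpins. Mature miR-16-5p is the same sequence from chromosomes 3 and 14. Whether its deposited count, often not whole, is the sum or the mean over these precursors is not stated, and its share of the family and its level relative to other members depend on this, while its differences between fractions and ages do not.

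The 14 plasma libraries held 928651 to 23905651 counts over all RNA classes and the 14 EV libraries 4764338 to 52753818, of which 4977 to 82646 and 20063 to 203624 were miRNA counts. The family took 2.38% ± 0.423 (SD, n = 14) of the miRNA counts of a plasma library and 2.10% ± 0.496 of those of an EV library. RPM below is the normalised value as deposited, a count over a divisor set for its library, and 1 read was worth 0.0722 to 1.70 RPM depending on the library. RPM is not divided by length, but the members are all 21 to 23 nt long, so that their levels are set side by side here.

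miR-16-5p made up most of the family in both fractions, and miR-15b-5p, miR-15a-5p and miR-322-5p followed. Of the family's counts in a library, miR-16-5p took 72.1% ± 3.30 (SD, n = 14) in plasma and 67.5% ± 4.60 in EVs, miR-15b-5p 14.9% ± 2.90 and 15.9% ± 3.28, miR-15a-5p 5.31% ± 1.40 and 5.31% ± 1.06, and miR-322-5p 3.93% ± 1.47 and 6.07% ± 2.37. The remaining 4 members each took less than 2% on average in either fraction. Among all 1966 miRNAs ordered by mean RPM, miR-16-5p stood in place 10 in plasma and 13 in EVs, and miR-503-5p, the lowest member, in place 377 and 298.

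miR-16-5p was read at 56.2 RPM in the lowest, 91.5 in the median and 219.5 in the highest plasma library, and at 39.5, 83.9 and 331 RPM in the EV libraries (means 109.5 ± 52.2 and 114 ± 85.2, SD, n = 14 each). miR-15b-5p reached 12.5, 17.7 and 43.4 RPM in plasma and 9.95, 18.9 and 48.2 RPM in EVs. miR-15a-5p, its counterpart on chromosome 14, reached 4.04, 6.56 and 18.7 RPM in plasma and 2.98, 6.56 and 19.9 RPM in EVs. For each of these 3 members the ranges of the fractions overlapped almost wholly, and the spread between mice of 1 fraction, with a coefficient of variation of 0.423 to 0.745, was far larger than the difference between the fraction means.

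miR-322-5p was read at 2.40, 5.03 and 9.68 RPM (lowest, median and highest library) in plasma and at 3.36, 6.10 and 26.1 RPM in EVs, and was above 1 RPM in all 28 libraries. miR-322-3p was read at 0, 1.36 and 3.40 RPM in plasma and at 0.378, 2.52 and 6.58 RPM in EVs. Both arms of this hairpin thus had the higher median in EVs, with ranges that overlapped. The 3p arm made up 21.7% of the reads of the hairpin in plasma (exact binomial 95% interval 18.6% to 25.2%, for counting error only, pooled over 14 libraries) and 21.8% in EVs (19.8% to 24.0%).

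The chromosome 11 pair was low. miR-497a-5p was read at 0, 1.91 and 3.92 RPM in plasma and at 0.698, 1.98 and 5.73 RPM in EVs, and miR-195a-5p at 0, 1.71 and 3.07 RPM in plasma and at 0.447, 1.50 and 3.46 RPM in EVs. miR-503-5p rested on 30 reads in all of the plasma libraries together and 66 in the EV libraries, never reached 1 RPM in plasma, and was at 0 counts in 3 plasma and 2 EV libraries. It therefore passed the filter for testing (1 RPM or more in over 10% of a fraction's libraries) in EVs only, while the other 7 members passed in both fractions.

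**Figure D1:**
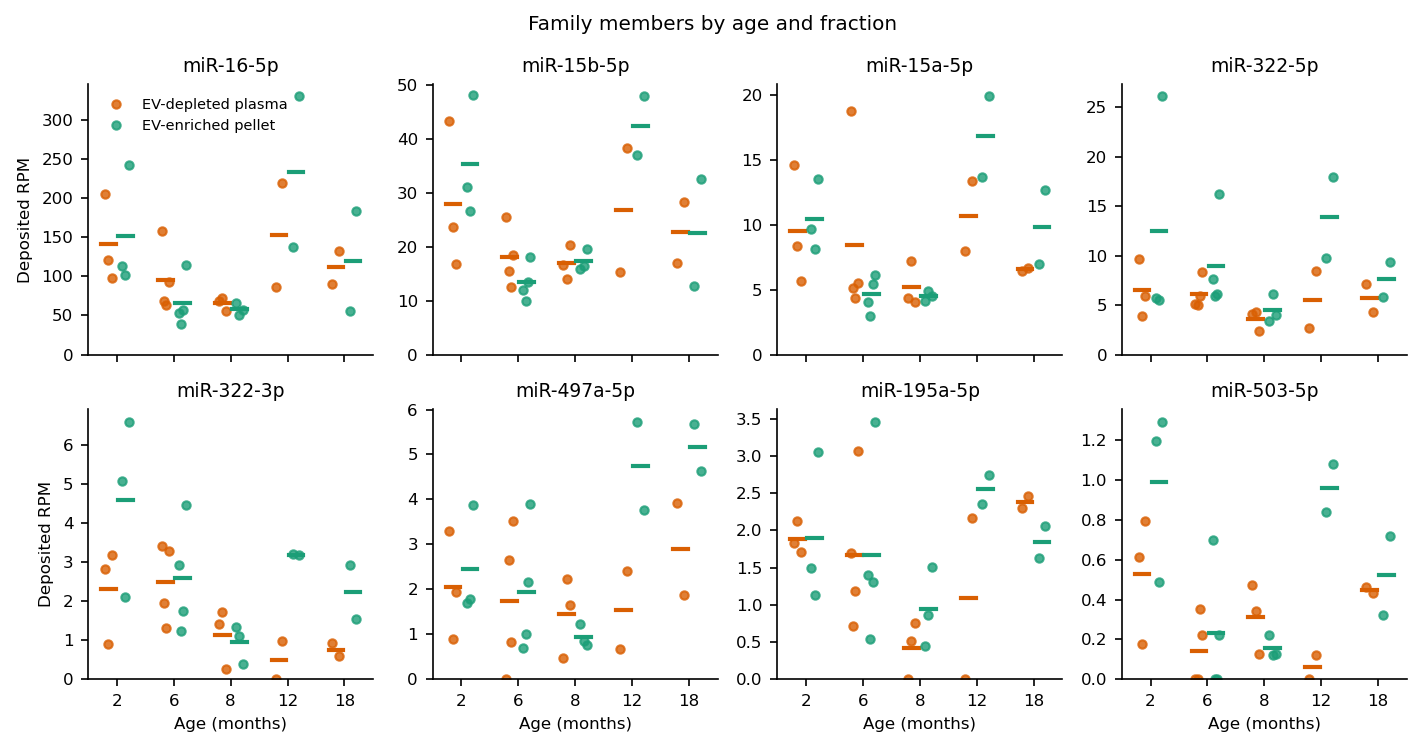
Deposited RPM of the 8 members against age in months, 1 point per library, EV-depleted plasma in orange and EV-enriched pellet in green, with short lines at group means and a separate linear axis from 0 for each member. The points of the 2 fractions overlap for every member, and miR-16-5p reaches 331 RPM where miR-503-5p reaches at most 1.29.

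By age in RPM, the 3 members of chromosomes 3 and 14 were highest in EVs at 12 months, and so were miR-322-5p and miR-195a-5p. In the order of its 10 groups of age and fraction, miR-16-5p was highest in EVs at 12 months (234 ± 137 RPM, n = 2), followed by plasma at 12 months (153 ± 94.2, n = 2), EVs at 2 months (152 ± 78.0, n = 3) and plasma at 2 months (141.8 ± 56.4, n = 3), and lowest in plasma (65.6 ± 8.25, n = 3) and EVs (58.2 ± 7.72, n = 3) at 8 months. No neighbours in this order differed by more than the larger of their SDs. miR-15b-5p and miR-15a-5p were also highest in EVs at 12 months (42.5 ± 7.71 and 16.8 ± 4.45 RPM) and lowest in EVs at 6 months (13.4 ± 3.50) and 8 months (4.52 ± 0.377). For miR-15a-5p the highest group did not overlap in RPM with the second, plasma at 12 months (10.7 ± 3.83 RPM). The margin was small, with a lowest library of 13.6 RPM against a highest of 13.4. In normalised CPM (miRNA counts scaled with TMM) these groups stood in the reverse order, 1251 ± 240 in EVs and 1562 ± 57.2 in plasma. On this scale EVs at 12 months were not the highest group of miR-16-5p or miR-15b-5p either. miR-16-5p read 17232.5 ± 8970 there and 22140.8 ± 3902 in plasma at 2 months. miR-15b-5p read 3176 ± 340 there and 5015 ± 96.45 in EVs at 2 months. miR-322-5p ran from 13.9 ± 5.81 RPM in EVs at 12 months to 3.60 ± 1.04 RPM in plasma at 8 months, and no neighbours in its order differed beyond their spread. In normalised CPM it read 1028 ± 359 in EVs at 12 months and 1567 ± 1042 in EVs at 2 months. miR-497a-5p was highest in EVs at 18 months (5.16 ± 0.741 RPM) and 12 months (4.74 ± 1.39 RPM), and the second of these lay more than an SD above plasma at 18 months (2.90 ± 1.44 RPM). miR-195a-5p ran from 2.55 ± 0.273 RPM in EVs at 12 months to 0.423 ± 0.386 RPM in plasma at 8 months, again with no neighbours apart. In normalised CPM its EVs at 12 months (191 ± 6.14) lay below its plasma at 18 months (333 ± 34.6). miR-322-3p ran from 4.59 ± 2.27 RPM in EVs at 2 months to 0.482 ± 0.682 RPM in plasma at 12 months, and its only neighbours more than an SD apart were EVs at 18 months (2.23 ± 0.974 RPM) and plasma at 8 months (1.12 ± 0.770 RPM), whose libraries overlapped. For miR-503-5p the highest groups, EVs at 2 months (0.992 ± 0.440 RPM) and at 12 months (0.962 ± 0.171 RPM), were alike. In RPM the second of these did not overlap with the next, plasma at 2 months (0.529 ± 0.318 RPM), which rests on 5, 1 and 7 reads. In normalised CPM, EVs at 12 months lay below plasma at 2 months (72.0 ± 7.39 against 83.5 ± 54.3).

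Red cell markers, like miR-16-5p, had higher group means at 2 and 12 months than at 6 and 8 months in both fractions, and their part in these levels was not tested. The summed RPM of 4 red cell miRNAs (miR-451a, miR-144-3p, miR-144-5p and miR-486a-5p, all 4 detected) was 645 to 2980 in the plasma libraries and 490 to 4128 in the EV libraries, with the highest group means at 12 months in EVs (3083 ± 1478, n = 2) and at 2 months in plasma (1850 ± 988, n = 3) and low means at 8 months (819 ± 38.8 in plasma and 766 ± 137 in EVs). The 3 miRNAs listed as platelet markers (miR-223-3p, miR-126a-3p and miR-126a-5p, all detected) summed to 111 to 733 RPM in plasma and 127 to 1049 RPM in EVs. The largest part was miR-126a-5p, with a mean of 187 RPM in plasma and 254 RPM in EVs. Whether this sum comes from platelets was not tested. In plasma their group means followed another order than miR-16-5p, with 224 ± 99.7 RPM at 2 months and 439 ± 53.9 RPM at 18 months. In EVs the platelet sum, like miR-16-5p in RPM, had its highest group mean at 12 months (869 ± 27.0 RPM, n = 2) and its lowest at 8 months. The 3 white cell miRNAs (all detected) summed to 86.2 to 329 and 129 to 594 RPM, the 2 of liver to 12.6 to 161 and 17.1 to 225 RPM, and the 4 of skeletal muscle and heart to 0.883 to 8.01 and 0.612 to 8.42 RPM. The white cell sum in EVs also had higher group means at 2 and 12 months than at 6 and 8 months. In plasma its highest group mean was at 6 months (206.5 ± 81.6 RPM). No defining marker was at 0 in all libraries of a fraction. Within a bulk fraction, fewer source cells and less RNA per cell cannot be told apart.

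The members differed in their likeness to miR-451a, the only one of these markers with which all 8 were correlated. Among the 62 miRNAs with at least 10 counts in all 28 libraries, the pattern most like that of miR-16-5p over the libraries, in CPM (miRNA counts scaled to the library's miRNA total with TMM), was that of miR-451a (Spearman correlation 0.939, 28 libraries), and miR-93-5p came second (0.839). miR-15b-5p was most like miR-451a (0.852) and miR-25-3p (0.81), and miR-15a-5p most like miR-15b-3p (0.776) and miR-451a (0.745). The correlation with miR-451a on the same scale was 0.176 for miR-195a-5p, -0.0356 for miR-322-5p, -0.15 for miR-322-3p, -0.12 for miR-497a-5p and 0.421 for miR-503-5p. These are descriptions over 28 libraries that come in pairs from 14 mice and share the library scaling, and the low members add counting noise that lowers a correlation. Within each fraction alone miR-16-5p kept a correlation of 0.934 (plasma) and 0.93 (EVs) with miR-451a, against -0.0418 and 0.121 for miR-322-5p. That of miR-15a-5p was 0.591 in plasma and 0.851 in EVs. In RPM, whose scaling all members share, the values were higher: 0.967 for miR-16-5p, 0.923 for miR-15b-5p, 0.862 for miR-15a-5p, 0.655 for miR-195a-5p, 0.487 for miR-503-5p (0.79 in EVs alone), 0.437 for miR-497a-5p, 0.408 for miR-322-5p and 0.306 for miR-322-3p.

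**Figure D2:**
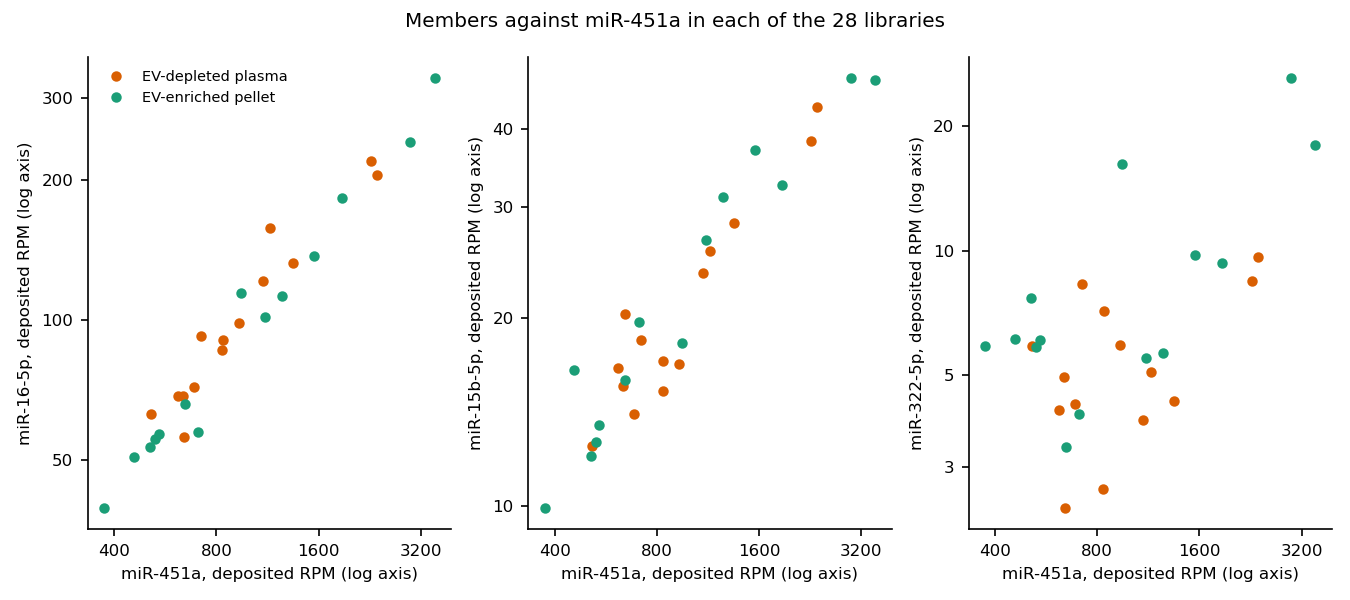
Deposited RPM of miR-16-5p, miR-15b-5p and miR-322-5p against that of miR-451a in the 28 libraries, both axes logarithmic, plasma in orange and EVs in green. miR-16-5p and miR-15b-5p lie along a line with miR-451a (Spearman correlation 0.967 and 0.923 in RPM), while miR-322-5p scatters (0.408).

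The comparison of EVs with plasma asks whether a member was enriched in either fraction. The main fit takes the 28 libraries without their pairing within mice, and the fit with the mouse as a block is given below. Of the 8 members, 0 passed the threshold of 0.05 on the adjusted p, against 61 of 333 miRNAs tested (18.3%, 27 higher in EVs and 34 higher in plasma, edgeR's quasi-likelihood test with age as a covariate and Benjamini-Hochberg adjustment over the 333). At an unadjusted p below 0.05 stood 2 members, miR-322-5p and miR-322-3p, and 111 miRNAs in all, and DESeq2 called 1 member, miR-322-5p, among 70 of the 333 miRNAs. The median log2 fold change of the members was 8.19e-05 and that of all 333 miRNAs 0.02, with 4 members above 0 and 4 below. Among those above 0, miR-503-5p had passed the filter in EVs only.

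Both arms of miR-322 had values above 0 that did not pass. In normalised CPM miR-322-5p was higher in EVs in 10 of 14 mice and miR-322-3p in 11 of 14. Their log2 fold changes of EVs over plasma were 0.44 (SE 0.17, edgeR adjusted p = 0.0735, range over the other settings 0.04 to 0.177) and 0.57 (SE 0.25, adjusted p = 0.104, range 0.055 to 0.259). For miR-322-5p the adjusted p fell to 0.04 in DESeq2, to 0.0448 without 6-month replicate 3 and to 0.0426 without 18-month replicate 1, so that its call depends on these mice and on the tool. The third member of the X chromosome, miR-503-5p, had a log2 fold change of 0.31 (SE 0.43, edgeR adjusted p = 0.676) on 30 and 66 reads. It entered the test through its EV libraries alone, which favours a value above 0, so nothing is drawn from its sign.

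The 3 members of chromosomes 3 and 14 had values below 0. miR-16-5p was higher in EVs in only 2 of 14 mice in normalised CPM, with a log2 fold change of -0.23 (SE 0.17, adjusted p = 0.385). With the mouse as a block, which compares the 2 libraries of each animal, the same difference was -0.27 and passed (edgeR adjusted p = 0.0377). Without the 2 mice of 2 months whose pairing is uncertain its edgeR adjusted p was 0.0512. Under the full block miR-322-5p and miR-322-3p did not pass (edgeR adjusted p = 0.055 for both). How many of all miRNAs pass under the block was not counted, and the 18.3% above is from the fit without it. The call of miR-16-5p under the block thus has no share of all miRNAs beside it. The log2 fold change of miR-15a-5p was -0.14 (SE 0.17, adjusted p = 0.599) and that of miR-15b-5p -0.09 (SE 0.18, adjusted p = 0.773), each with 4 of 14 mice higher in EVs. For miR-195a-5p it was -0.04 (SE 0.28, adjusted p = 0.952) and for miR-497a-5p 0.04 (SE 0.24, adjusted p = 0.943), both far inside their errors. Under the scaling of the deposited RPM the median of all miRNAs moved up by 0.26, and the signs of miR-15a-5p, miR-15b-5p, miR-16-5p and miR-195a-5p turned positive (0.10, 0.16, 0.06 and 0.21). These 4 values were smaller than the shift. Those of miR-322-5p and miR-322-3p (0.73 and 0.85, edgeR adjusted p = 0.089 and 0.0944) were larger, as were those of miR-503-5p (0.65) and miR-497a-5p (0.36). Under this scaling 0 members passed.

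The neighbours of the members at the same loci gave 0 calls as well. Of 9 other arms and hairpins, 3 could be tested, and their log2 fold changes were 0.35 for miR-15a-3p, -0.14 for miR-15b-3p and -0.22 for miR-16-2-3p (edgeR adjusted p 0.306 to 0.56). Of the 9 other miRNAs in the row on the X chromosome, 2 could be tested, miR-351-5p (0.21) and miR-450a-5p (0.25), at adjusted p of 0.751 and 0.654. None of these 5 had an unadjusted p below 0.05, and DESeq2 called 0 of them. All 5 tested miRNAs of this row, members included, had a value above 0, where the median of all 333 miRNAs was 0.02. Of these, miR-503-5p entered the test through its EV libraries alone. Other miRNAs of the X chromosome were not looked at as a group. The 4 further mouse miRNAs that carry the seed AGCAGCA (miR-195b, miR-6342, miR-6353 and miR-6419) did not pass the filter in either fraction.

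**Figure D3:**
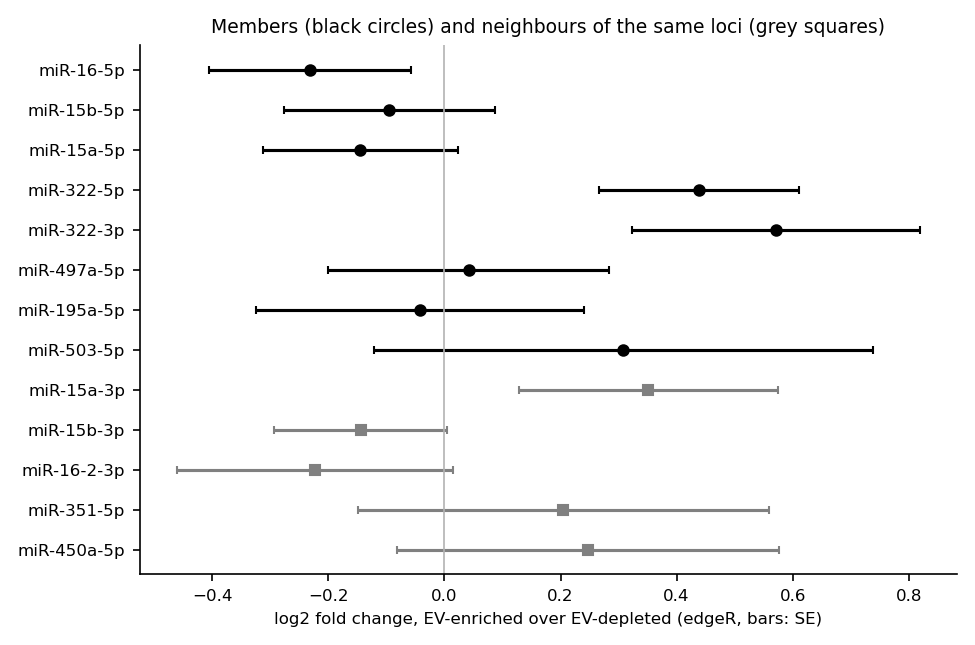
The log2 fold change of EV-enriched over EV-depleted libraries from edgeR for the 8 members (black circles) and 5 neighbours at the same loci (grey squares), with bars of 1 SE and a line at 0. miR-322-5p (0.44) and miR-322-3p (0.57) lie to the right and miR-16-5p (-0.23) to the left, and none passes the threshold over the 333 miRNAs tested.

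Ratios of members within a library do not depend on the scaling. They carry the change of both members. In the comparison above, miR-16-5p had a log2 fold change of -0.23, against a median of 0.02 over all 333 miRNAs. How often other miRNAs rise in EVs against miR-16-5p was not counted. The ratio of miR-322-5p to miR-16-5p was higher in EVs than in plasma in 13 of 14 mice. Pooled over libraries it was 0.0519 in plasma, with 9372 counts of miR-16-5p, and 0.0777 in EVs, with 14985.5, and its log2 value was -4.25 ± 0.546 in plasma and -3.56 ± 0.618 in EVs (SD, n = 14). Within mice the difference was 0.68 (SE 0.139), with an exact two-sided sign-change test over all sign patterns giving p = 0.000488 and 0.00293 after Benjamini-Hochberg adjustment over 6 ratios. By age, the difference was 0.10, 0.745 and 0.834 in the 3 mice of 2 months and 1.95, 1.03, 0.201 and 0.634 in the 4 of 6 months. It was -0.237, 1 and 0.702 in the 3 mice of 8 months, 1.06 and 0.491 in the 2 of 12 months, and 0.417 and 0.628 in the 2 of 18 months, so that a mouse of 8 months, replicate 1, was the exception.

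It was one of 8 ratios listed for comparison, but miR-322-5p had 3 counts in the plasma library of 6-month replicate 1 and 4 in that of 12-month replicate 1, under the minimum of 5 set for a test. The test above uses a minimum of 3, chosen after its values were seen. Without these 2 mice the difference was 0.55 (exact sign-change test, adjusted p = 0.0117), and leaving out each mouse in turn gave 0.585 to 0.753 (adjusted p 0.00146 to 0.00586). Against miR-15b-5p the ratio of miR-322-5p was higher in EVs by 0.50 (SE 0.136, 11 of 14 mice, exact adjusted p = 0.0103) and against miR-15a-5p by 0.58 (SE 0.21, 10 of 14 mice, exact adjusted p = 0.0183), both also chosen after the values were seen. The second no longer passed without the same 2 mice (0.374, exact adjusted p = 0.0723). Of the red cell markers, miR-451a had a log2 fold change of -0.10 between the fractions (SE 0.21, edgeR adjusted p = 0.795), miR-144-3p of 0.19 (SE 0.18, adjusted p = 0.507), miR-144-5p of 0.24 (SE 0.19, adjusted p = 0.418) and miR-486a-5p of -0.77 (SE 0.2, adjusted p = 0.00594), so that 2 of the 4 red cell miRNAs had values above 0, 2 below, and 1 passed. The part of red cell RNA in the ratios to miR-16-5p, miR-15b-5p and miR-15a-5p was not tested.

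**Figure D4:**
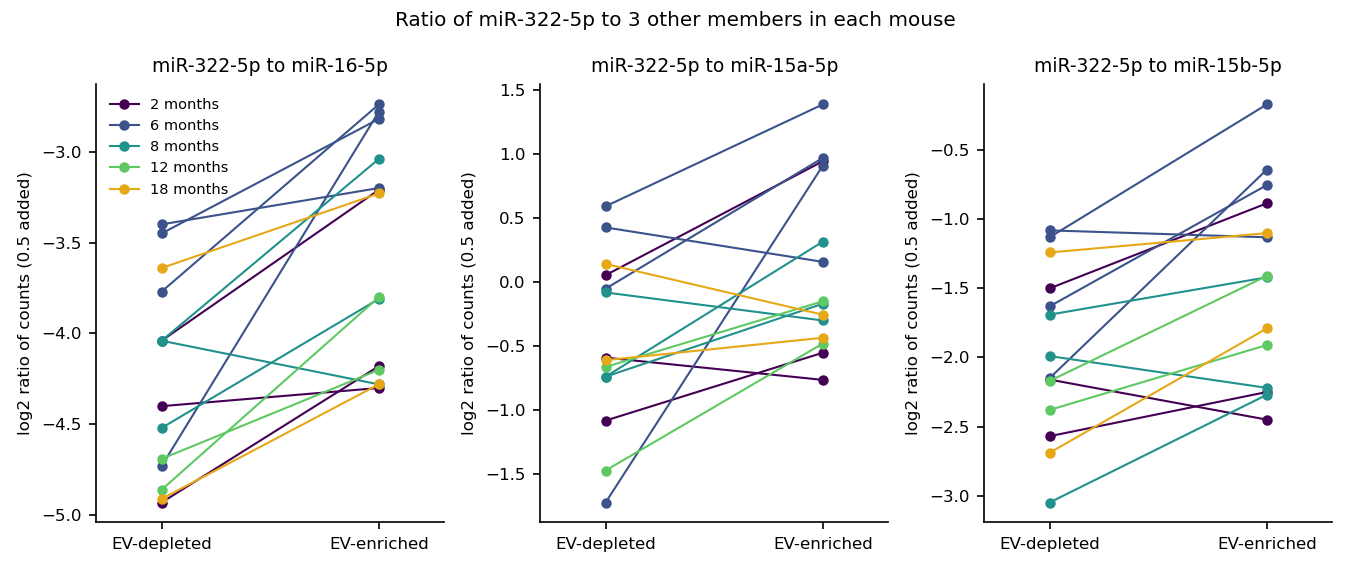
The log2 ratio of counts of miR-322-5p to miR-16-5p, miR-15a-5p and miR-15b-5p (0.5 added to each count) in EV-depleted plasma and EV-enriched pellet, with 1 line per mouse coloured by age. Lines rise in 13 of 14 mice for miR-16-5p, 10 for miR-15a-5p and 11 for miR-15b-5p.

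Among miR-15a-5p, miR-15b-5p and miR-16-5p themselves the proportions did not differ detectably between the fractions. The log2 ratio of miR-15b-5p to miR-16-5p was higher in EVs by 0.18 (SE 0.0886, 9 of 14 mice, exact sign-change p = 0.0638, adjusted 0.192 over the 3 ratios that reached the minimum of 5 counts). That of miR-15a-5p to miR-16-5p was higher by 0.10 (SE 0.0932, 8 of 14 mice, exact adjusted p = 0.448) and that of miR-15a-5p to miR-15b-5p lower by 0.08 (-0.0777, SE 0.133, exact adjusted p = 0.571). The low members allow pooled ratios of reads only. That of miR-322-3p to miR-322-5p was 0.278 in plasma and 0.279 in EVs, and that of miR-503-5p to miR-322-5p 0.0617 and 0.0567. miR-497a-5p gave 168 reads to 125 of miR-195a-5p in plasma and 314 to 207 in EVs.

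The passenger arms tell the 2 sources of miR-16-5p apart, since the 3p arms of Mir16-1 and Mir16-2 differ in sequence. miR-16-2-3p, from chromosome 3, gave 269 reads in plasma and 432 in EVs, and miR-16-1-3p, from chromosome 14, 10 and 30. The arm of chromosome 3 thus made up 96.4% of the sum in plasma (exact binomial 95% interval 93.5% to 98.3%) and 93.5% in EVs (90.9% to 95.6%), between 78.3% and 100% in single libraries. Passenger arms need not last in the proportions of their mature partners, and the share of each locus in mature miR-16-5p was not measured. miR-15b-3p made up 35.3% of the reads of its hairpin in plasma and 35.4% in EVs, and miR-15a-3p 14.7% and 17.5% (intervals 12.2% to 17.5% and 15.4% to 19.7%).

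The age trend asks whether a member rose or fell from 2 to 18 months within a fraction. In plasma 0 of 7 members tested passed, against 0 of 304 miRNAs (0%, edgeR's quasi-likelihood test, slope per month), and in EVs 0 of 8, against 1 of 307 (0.326%). At an unadjusted p below 0.05 stood 1 member in plasma (47 miRNAs in all) and 2 in EVs (37 in all), and DESeq2 called 0 members in either fraction (2 and 5 miRNAs in all). The members with an unadjusted p below 0.05 were both arms of miR-322.

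miR-322-3p had the steepest slope of the members tested in each fraction. In normalised CPM its plasma libraries read 328, 182 and 571 at 2 months, 360, 386, 272 and 392 at 6 months, 333, 342 and 76.0 at 8 months, 0 and 116 at 12 months, and 123 and 84.2 at 18 months. All 7 libraries of 2 and 6 months lay above the 4 libraries of 12 and 18 months on this scale. The libraries of 8 months fell on both sides, with 333 and 342 among those of 2 and 6 months and 76.0 below them. In RPM 2-month replicate 2 (0.887) lay below 12-month replicate 2 (0.965) and 18-month replicate 1 (0.921). This cut leaves out 8 months, and how many of all miRNAs separate at it was not counted. Its slope was -0.14 log2 units per month (SE 0.0415, unadjusted p = 0.00341, edgeR adjusted p = 0.176, range over the other settings 0.0519 to 0.521). The 4 libraries of 12 and 18 months rest on 0, 8, 4 and 4 reads, and the 7 of 2 and 6 months on 2 to 28.

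In EVs, miR-322-3p read 816, 390 and 698 normalised CPM at 2 months, 642, 339, 321 and 457 at 6 months, 316, 224 and 102 at 8 months, 254 and 226 at 12 months, and 321 and 152 at 18 months. The slope was -0.09 log2 units per month (SE 0.0312, unadjusted p = 0.00929, edgeR adjusted p = 0.204), and leaving out each mouse moved the adjusted p between 0.0546 and 0.524. DESeq2 gave no adjusted p for it in EVs. The 7 libraries of 2 and 6 months lay above the 7 of 8, 12 and 18 months, but 6-month replicate 3 and 18-month replicate 1 were level at 321, and in RPM the same groups overlapped (1.22 to 6.58 against 0.378 to 3.20). Unlike the cut used for plasma, this one puts 8 months with the later ages. How many of all miRNAs separate at it was not counted. The slope was -0.0519 under the RPM scaling (edgeR adjusted p = 0.489) and -0.163 without the 18-month mice (adjusted p = 0.181).

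**Figure D5:**
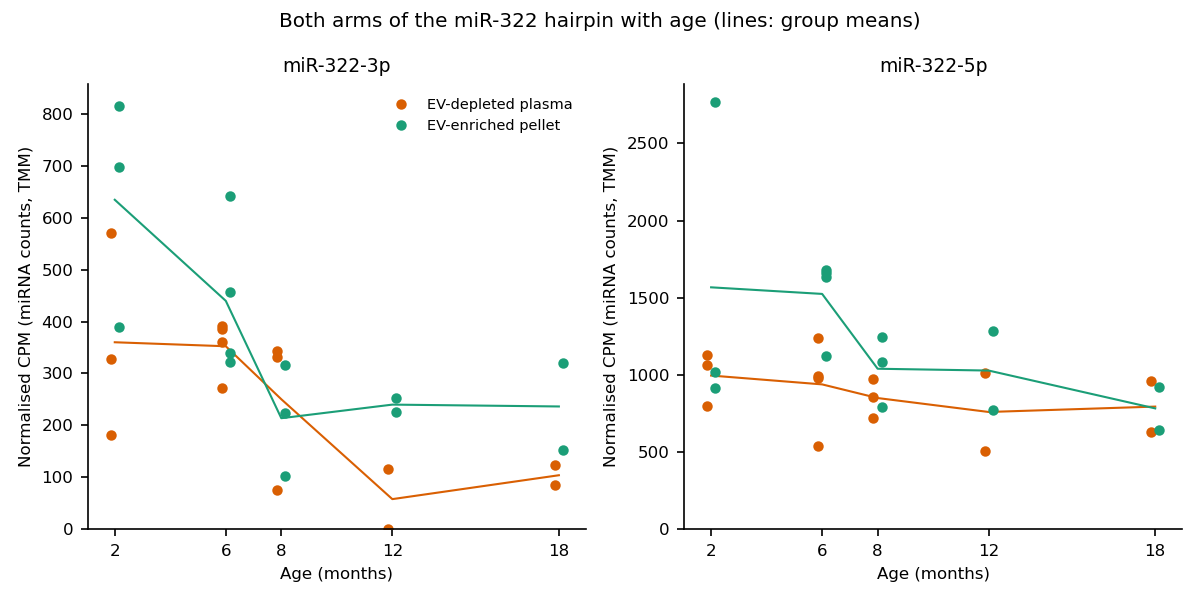
Normalised CPM (share of miRNA counts, TMM scaling) of miR-322-3p and miR-322-5p against age in months, 1 point per library, plasma in orange and EVs in green, with lines through the group means. miR-322-3p is highest at 2 months in EVs and is at most 123 CPM in the 4 plasma libraries of 12 and 18 months, and no slope passes the threshold after adjustment.

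For the 5p arm no slope passed either. miR-322-5p had a slope of -0.06 in EVs (-0.0583, SE 0.0263, unadjusted p = 0.0393, edgeR adjusted p = 0.389) and of -0.03 in plasma (-0.0275, SE 0.0233, adjusted p = 0.615). In EVs 1 library of 2 months, replicate 3, stood at 2769 normalised CPM beside 912 and 1020 for the other two of that age, and the 18-month libraries at 641 and 923. Without that mouse the slope in EVs was -0.0347, and under the RPM scaling -0.0206. Of the neighbours on the X chromosome, miR-351-5p had slopes of -0.15 in plasma and -0.12 in EVs (edgeR adjusted p = 0.272 and 0.232) and miR-450a-5p of -0.04 and -0.06 (adjusted p = 0.835 and 0.48). All tested miRNAs of this row, miR-503-5p in EVs included, had slopes below 0 and none passed. Such slopes were not particular to this row. They were below 0 for 5 of 7 members in plasma and 7 of 8 in EVs, and for the 3 tested other arms of chromosomes 3 and 14 in each fraction. The median slope of all miRNAs was -0.00203 in plasma and 0.00136 in EVs. How many of all miRNAs had a slope below 0 was not counted.

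miR-497a-5p was the only member with a slope above 0 in EVs (0.05, SE 0.0262, unadjusted p = 0.0549, edgeR adjusted p = 0.411), and without the 18-month mice it turned to -0.0089. The 10 remaining slopes, 5 in each fraction, lay between -0.06 and 0.01 log2 units per month, and 8 of them changed sign under at least 1 other setting.

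The interaction of age and fraction tests whether these trends differ between EVs and plasma. It passed for 0 of 8 members and for 0 of 333 miRNAs (0%, edgeR, adjusted p = 0.998 for every member), with 0 members and 11 miRNAs at an unadjusted p below 0.05, and DESeq2 called 0. The difference of the slopes, EVs minus plasma, was 0.03 for miR-322-3p and -0.04 for miR-322-5p.

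The study's methods name the rank correlation of RPM with age. This rho was below -0.5 for 1 of 7 members in plasma, miR-322-3p, against 17 of 304 miRNAs (5.59%), and above 0.5 for 0 of 7, against 9 of 304 (2.96%). In EVs 0 of 8 members lay above 0.5, against 33 of 307 miRNAs (10.7%), and 0 of 8 below -0.5, against 1 of 307 (0.326%). For miR-322-3p in plasma rho was -0.593 (permutation p = 0.0286, adjusted 0.7 over 304 miRNAs) and Pearson's r -0.584 (permutation p = 0.0289, adjusted 0.432, n = 14). Without the 2 mice farthest from the median age, those of 18 months, rho was -0.525 and r -0.576 (permutation p = 0.0832 and 0.052). In EVs the same member had a rho of -0.335 in RPM (permutation p = 0.241, adjusted 0.586) and of -0.802 in normalised CPM (permutation p = 0.00107, adjusted 0.102). miR-497a-5p in EVs had a rho of 0.371 and an r of 0.607 (permutation p = 0.192 and 0.0212, adjusted 0.539 and 0.225), and r fell to 0.315 without the 18-month mice.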

How the data were processed

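Libraries were assigned to fraction, age and mouse by the submitters' labels. The authors deposited estimated counts (raw, per RNA) and the same values as RPM, a signal that scales a count by a divisor set per library, which is not the library's total. The paper's methods name miRMaster, Bowtie and miRBase for its tissue cohorts and refer to an earlier publication for the EV and plasma libraries, so the aligner and annotation of these, and what the divisor counts, are not stated in the sources used here. The submitters' processing notes name mm10, the same build as GRCm38, and R 4.0.4.

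Tests used the estimated counts after rounding, and a miRNA was kept if over 10% of the 14 libraries of a fraction held 1 RPM or more. The main tool was edgeR 4.0.16 in R 4.3.3 (TMM over miRNAs, quasi-likelihood test), p-values were adjusted by Benjamini-Hochberg over all miRNAs kept, and the threshold was 0.05. DESeq2 1.42.0 was the other tool. Correlations with age used 100000 permutations, and ratios within mice (log2, 0.5 added to each count) an exact test over all sign changes. Both tools were first tested on simulated counts. Other steps ran in Python 3.11.15 (scipy 1.17.1). Hairpin positions are from GENCODE M21 and RefSeq.

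The pairing comes from the labels: the EV and the plasma library of a number are from the same animal. The plasma labels of replicates 2 and 3 at 2 months share a code, and these were paired by number. As a check, deviations from the age means correlated within a mouse between -0.0396 and 0.377 over 278 miRNAs. That libraries of a group come from separate mice rests on the submitters' protocol.

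All 8 members are named. The members, the related miRNAs (other arms of their loci, the row on the X chromosome, the same seed), the marker lists and the alternatives were chosen with earlier results of these data known, and the ratios with a minimum of 3 counts were added after the values were seen. The alternatives were other scalings, filters and codings of age, the mouse as a block, and leaving out mice or shallow libraries. Counting error falls with depth, and intervals cover counting error only, since no molecular identifiers are named in the sources used here.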

Additional observations from a re-analysis of the deposited data

Results flagged for a closer look

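In the plasma of 6-month replicate 1, miR-15a-5p stood at 18.7 RPM, while the other 3 mice of that age had 4.36 to 5.48 RPM. The gap was 0.922 of the range of the 4 libraries, above the 95% critical value of Dixon's test. That value rests on 11 reads in the shallowest library, in which 1 read was worth 1.70 RPM. The same library held the lowest count of miR-322-5p, 3 reads. Of 16 groups of 4 libraries looked at, 1 was singled out in this way, and chance does so in about 1 of 20.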

How the results depend on the processing

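The count of members that differ between the fractions was 0, and it was 1 with DESeq2 and 1 with the replicate block (the mouse as a block), and 0 to 1 when each mouse was left out. Of all 333 miRNAs, 61 passed in the main fit and 70 with DESeq2. The number under the block and with a mouse left out was not counted. The member called was miR-322-5p in DESeq2 and without 6-month replicate 3 or 18-month replicate 1, and miR-16-5p under the block, which changed no other member's call. Counts of members with an age trend or an interaction stayed at 0 under every alternative run. The RPM scaling turned the log2 difference between fractions to 0.0998 for miR-15a-5p, 0.162 for miR-15b-5p, 0.0611 for miR-16-5p and 0.21 for miR-195a-5p. Without a filter it was 0.0218 for miR-15b-5p and 0.0956 for miR-195a-5p, whose value was also 0.0106 with DESeq2 and 0.141 under the block without the uncertain pairs. With each mouse left out, that of miR-195a-5p ran from -0.113 to 0.0508 and that of miR-497a-5p from -0.0237 to 0.172. The slope of miR-497a-5p in EVs was -0.0089 without the 18-month mice. The log2 ratio of miR-15a-5p to miR-15b-5p was 0.0466 without the 2 mice of low miR-322-5p counts and ran from -0.139 to 0.00258 with each mouse left out. That of miR-322-5p to miR-15a-5p fell short of the threshold without these 2 mice (0.374) and without the uncertain pairs (0.558, exact adjusted p = 0.0596). The cause was not tested. The members other than miR-16-5p and miR-15b-5p have few reads in the shallow plasma libraries, so small differences were not detectable there.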
